A study of Homo sapiens with 34 samples.

Results

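The DDX17 knockout in RPE-1 cells was compared with 3 other gene knockouts made in the same experiment. The comparison takes 2 DDX17 knockout libraries and 6 libraries of the other knockouts (DDX5, FNBP4 and HDAC7, 2 each) out of 34 RNA-seq libraries. They were chosen by their labels alone, and the replicate number was kept as a block, so that a difference shared by all 4 knockouts cancels. RPE-1 is an hTERT-immortalised human retinal pigment epithelial line. Every group in use, controls included, was transduced with lentivirus carrying a hybrid guide RNA (hgRNA), which joins a Cas9 guide to a Cas12a guide. The multiplicity of infection was below 1, puromycin was given at 20 µg/ml for 72 h, and cells were grown for 4 more days before total RNA was taken. Each knockout had 1 hgRNA, whose Cas9 guide comes from the TKOv3 exon-targeting library. The 4 intergenic control libraries came from 2 hgRNAs. A further 4 libraries carried a deletion inside an intron of DDX17 and are given here only as levels. The labels name transduced populations and no clone, so cells with an unedited DDX17 allele may be among them, and fewer cells with an RNA cannot be told apart from less of it per cell. They call the pairs biological duplicates without saying whether each was transduced apart, so p-values measure the spread between these libraries.

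DDX17 (p72) is a DEAD-box RNA helicase and the close paralog of DDX5 (p68). Both bind many transcripts, take part in the choice of alternative exons, serve as cofactors of the Microprocessor that cuts primary microRNAs, and act as coregulators of transcription factors such as p53, MyoD and the steroid receptors. The 2 proteins can bind each other, and a cell that loses one often makes more of the other. FNBP4 is a formin-binding WW-domain protein, and HDAC7 is a class IIa histone deacetylase.

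The guide defines what the knockout can do to the gene, so it is shown with the coding sequence it cuts. It lies on the minus strand at chr22:38486424-38486443 (GRCh38) over the start of exon 13, the last of 13 exons in transcript DDX17-202. The capitals mark the 17 guide bases that belong to exon 13. The 3 lower-case bases before them are not in the transcript. In the second line the same 17 bases follow the last 30 bases of exon 12 and are followed by the next 20 of exon 13.
DDX17 Cas9 guide: tagGTGGTCGTTCTCGTTAC
DDX17 exon 12 and exon 13 joined: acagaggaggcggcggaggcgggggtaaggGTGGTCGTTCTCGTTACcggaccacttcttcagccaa
The CGG beside the guide is its PAM, and the expected Cas9 cut falls 14 bases into the last exon. Of 2193 coding bases 489 (22.3%) lie after it, so the sequence for the helicase core is upstream of the cut. A frameshift there is not followed by an exon junction, the feature that nonsense-mediated decay reads. For comparison, the DDX5 guide lies in exon 6 of 13 with 67.2% of the coding sequence after its cut, and the FNBP4 guide in exon 5 of 17 with 77.7%.
DDX5 Cas9 guide: aagtctacttgtatctacgg
FNBP4 Cas9 guide: gaagtctgggatgagaacac
The label of the HDAC7 knockout gives this same FNBP4 guide as both of its guides. HDAC7 mRNA was at 179 and 180 CPM in the libraries labelled HDAC7 knockout and at 147 to 222 CPM in the other knockouts, and the group is called by its label throughout.

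DDX17 mRNA was lower in its own knockout. Levels here are the spliced-junction reads of a gene relative to the library's total (CPM), with library totals scaled by TMM. The DDX17 knockout libraries held 285 and 330 CPM. The other 6 knockouts held 394, 440 and 637 CPM as lowest, median and highest, and the controls 396 to 433. Both DDX17 knockout libraries were below all 6 others and below all 4 controls. The log2 difference from the mean of the other 3 knockouts was -0.65 (SE 0.07, limma adjusted p = 1.11e-05). It was -0.41 against the FNBP4 knockout and -0.50 against the libraries labelled HDAC7 knockout. It was larger, -1.04, against the DDX5 knockout, whose libraries held the highest DDX17 levels of the 8 (637 and 629 CPM). Without the replicate block the difference was the same size but missed the threshold (limma adjusted p = 0.0836). In the authors' deposited table DDX17 stood at 102 RPKM in its knockout and at 200.5 in the DDX5, 136 in the FNBP4 and 143 in the HDAC7 knockout, as pooled values.

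Junction by junction, the loss was uneven along DDX17. All 12 junctions of the transcript were found in the table. The 11 junctions before the last exon stood at 55.6% to 75.5% of the mean of the other knockouts (median 65.9%), and at 8 of the 11 both DDX17 knockout libraries were below all 6 others. Control libraries overlapped the DDX17 knockout at junctions 3 and 4, and lay above it at the other 10. The junction into exon 13 stood at 7.28%. It had 0 and 7 reads in the DDX17 knockout, against 30, 47 and 64 in the others (lowest, median, highest), 40 to 71 in the controls and 32 to 58 with the DDX17 intronic deletion. As a share of all DDX17 junction reads this was 0% of 4548 in replicate 1, where 3 reads would be 0.066%, and 0.121% of 5769 in replicate 2 (exact 95% binomial interval 0.0488% to 0.25%, counting error only). The others held 0.5% to 0.769%, so the groups did not overlap. An exact permutation test within replicates gave p = 0.0625, the smallest that its 16 arrangements allow. The junction lies within the guide's target, and reads over an edited sequence may go uncounted. Unspliced reads at 1 boundary of this intron numbered 3 and 15 in the DDX17 knockout. The other knockouts had 0 there in replicate 1 and 1 to 5 in replicate 2, and the controls 1 to 6. At the other boundary the DDX17 knockout had 0 and 2, the other knockouts 0 to 5 and the controls 1 to 6. These counts are small, and less splicing into exon 13 was not tested against reads lost at the edit.

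**Figure D1:**
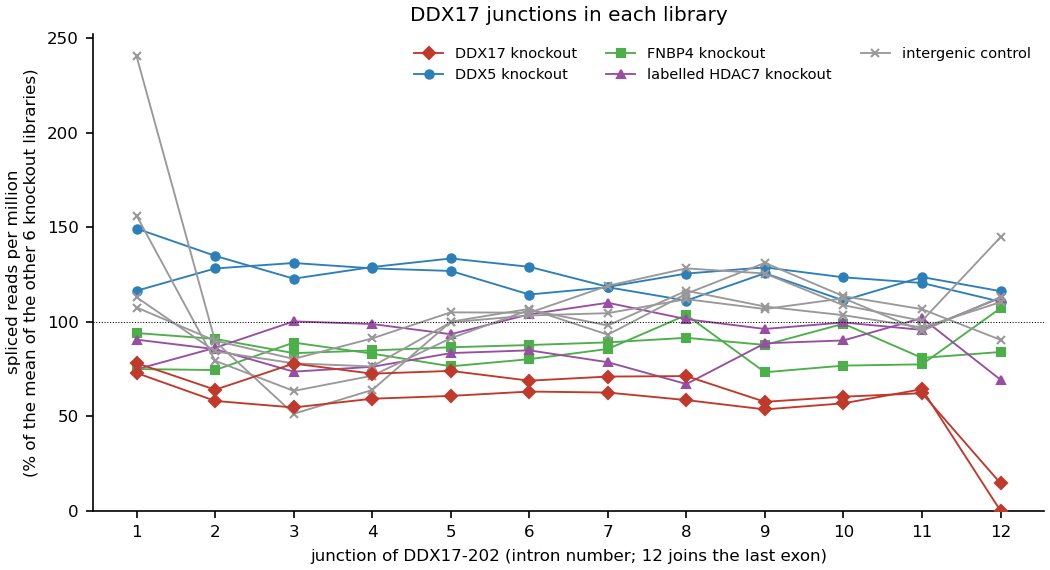
Reads over each of the 12 DDX17 junctions, numbered from the first exon, scaled for library depth, as a percentage of the mean of the 6 other knockout libraries, with a point for each knockout and control library. The DDX17 knockout points lie at a median of 65.9% over the first 11 junctions and are the lowest by far at the last, where their mean is 7.28%.

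The intron between exons 11 and 12, which holds the exon with a premature stop codon and which the DDX17 intronic deletions were aimed at, was spliced at least as fully in the knockout as elsewhere. It was 0.766% unspliced in replicate 1 against 0.896% to 2.48% in the others, and 4.98% against 6.77% to 10.8% in replicate 2 (exact permutation within replicates, p = 0.125). The stop-codon exon at chr22:38489228-38489458 was included at 0% in both DDX17 knockout libraries and at 0.0701% to 1.67% in the others (limma adjusted p = 0.79). Of the other edited genes, DDX5 was higher than in the mean of the others by 0.77 on the log2 scale (SE 0.09, limma adjusted p = 2.97e-05), with 512 and 679 CPM against 133 to 778, and this mean includes the DDX5 knockout itself. Against the FNBP4 knockout the DDX5 difference was 0.05 and against the controls 0.08 (adjusted p = 0.687). FNBP4 (0.11, adjusted p = 0.587) and HDAC7 (0.03, adjusted p = 0.894) did not pass.

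Across genes, 634 of 11452 tested were higher in the DDX17 knockout (5.54%) and 663 were lower (5.79%), 1297 in all (11.3%) at a limma adjusted p under 0.05. In 795 of them (6.94% of those tested) both DDX17 knockout libraries also lay outside the range of the 6 others, 362 above and 433 below. Whether called or not, 700 genes (6.11%) had both libraries above all 6 others and 805 (7.03%) below. The count rests on few libraries. It was 22 without the replicate block and 170 without DDX17 knockout replicate 1. Without DDX17 knockout replicate 2 it was 110 higher and 85 lower, while without replicate 2 of the libraries labelled HDAC7 knockout it was 2147. The split of higher to lower calls moved with the scaling, to 833 and 489 with upper-quartile scaling and to 764 and 1227 once trends with GC content and length were removed. Of the 107 genes chosen by rule, 94 lost their call without the block, 58 without DDX17 knockout replicate 1 and 60 without replicate 2, and 31 kept it in every setting other than the fit without the block. Among the 24 largest differences, IFITM10, MACROD1, CA9, BMF, CDH4, TXNRD3, SERPINB2, IGFBP3, TAX1BP3 and DKK1 were among those that passed in all settings run, the fit without the block included. Without DDX17 knockout replicate 1 MARCKSL1 (limma adjusted p = 0.0641), DENND6B (0.0635) and KRT34 (0.159) missed the threshold, and without replicate 2 REEP6 did (0.106).

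The 12 largest rises and 12 largest falls were taken only from called genes with both DDX17 libraries outside the range of the other 6. Their lack of overlap was therefore set by that rule. Higher genes were led by IFITM10, a member of the interferon-induced transmembrane protein family. It stood at 27.9 and 36.2 CPM in the DDX17 knockout and at 9.27, 10.2 and 11.9 in the other knockouts (lowest, median, highest). The groups did not overlap (log2 1.61, SE 0.11, limma adjusted p = 6.41e-08). MACROD1, which removes ADP-ribose from proteins, held 24.3 and 20.6 CPM against 3.01, 10.7 and 12.7, again with no overlap (log2 1.56, SE 0.12, adjusted p = 1.59e-07). The difference for MACROD1 was 2.76 against the DDX5 knockout and 1.00 and 0.91 against the FNBP4 and HDAC7 ones. CA9, the hypoxia-induced carbonic anhydrase, held 19.4 and 22.6 CPM against 4.58, 7.58 and 11.1 (log2 1.52, adjusted p = 2.31e-06). BMF, a BH3-only activator of apoptosis, held 14.1 and 16.2 CPM against 3.44, 6.27 and 8.22 (log2 1.44, adjusted p = 2.53e-06). The controls held 14.8 to 30.6 CPM of BMF, so the DDX17 knockout was not above them. For all 4 the separation from every other knockout library was required by the rule. TNC, the matrix glycoprotein tenascin C, was the most abundant of the 12 largest rises, at 126 and 162 CPM against 48.2, 67 and 85 (log2 1.10, SE 0.08, adjusted p = 6.41e-08). The other 7 were PNRC1, CDH4 (R-cadherin), OLFML2A, MARCKSL1, GREM1 (a secreted BMP antagonist), ZFP36L2 (which promotes decay of AU-rich mRNAs) and the protease PRSS23, with log2 differences from 1.11 to 1.36. Not all of these rises appear in the authors' pooled RPKM. GREM1 was at 347 there in the DDX17 knockout and at 339 to 416 in the others, and PRSS23 at 405 and 383 to 420. The other rises named here were highest in the DDX17 knockout in those values too, but the size of the rise was not kept for all. PNRC1 was at 37.16 RPKM against 27.67 to 32.57 in the others, and MARCKSL1 at 57.89 against 38.92 to 45.93. ZFP36L2 was at 17.7 against 12.57 to 15.56. These margins were smaller than in the junction reads. The margin was wide for IFITM10 (27.69 against 6.82 to 10.99) and TNC (26.29 against 11.75 to 13.5).

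Lower genes were led by TXNRD3, a thioredoxin and glutathione reductase. It held 11.7 and 9.96 CPM in the DDX17 knockout against 32.7, 36.8 and 41.8 in the others and 29.3 to 33.1 in the controls, so both of its libraries were far below all others (log2 -1.77, SE 0.13, limma adjusted p = 1.54e-07). The size was alike against each knockout, -1.93, -1.73 and -1.67 for DDX5, FNBP4 and HDAC7. SERPINB2, an inhibitor of plasminogen activators, held 8.08 and 7.79 CPM against 20.3, 21.2 and 26.9 (log2 -1.47, adjusted p = 5.9e-06). TAX1BP3, a small PDZ-domain protein, held 49.7 and 46.2 CPM against 86.3, 104 and 123 (log2 -1.11, SE 0.08, adjusted p = 1.59e-07). None of these 3 overlapped between the groups, as the rule for the largest falls required. IGFBP3, a carrier of insulin-like growth factors, had the smallest adjusted p of the 24 (3.61e-08), with a mean of 217 ± 5.77 CPM (SD, n = 2) against 304, 516 and 658 (log2 -1.12, SE 0.07). Another 7 of the 12 largest falls were MYPN (myopalladin), SDSL, SERPINB7, DENND6B, KRT34 (a hair keratin), REEP6 and DKK1 (a secreted Wnt inhibitor), from -1.33 to -1.08.

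**Figure D2:**
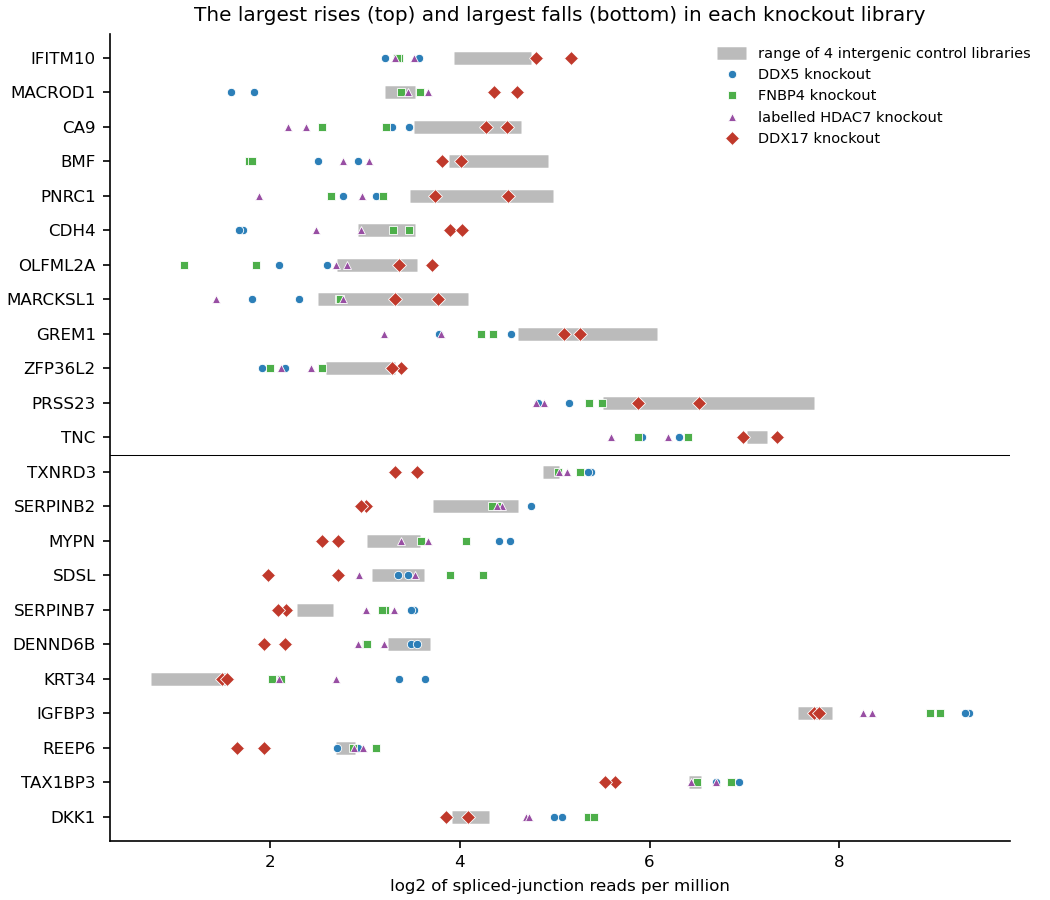
Spliced-junction CPM on a log2 scale for the 12 largest rises and 11 of the 12 largest falls, with a point for each of the 8 knockout libraries and a bar for the range of the 4 controls. For every gene drawn both DDX17 knockout points lie outside the range of the other 6, which the rule for these genes required, while their place relative to the control bar varies.

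Comparisons with the controls give a level beside which each side of a difference can be placed. The controls also differed from the knockouts as libraries. Their exon-intron share, described below, was 2.11% to 2.57%, against 0.965% to 2.29% in the knockouts, and its part here was not tested. These comparisons share libraries with the one above, so values are given side by side. For the 12 largest rises the median log2 difference from controls was 0.22 in the DDX17 knockout and -1.09 in the mean of the other 3. For TNC it was 0.00 (adjusted p = 0.978) in the DDX17 knockout and -1.10 (adjusted p = 1.5e-06) in the others. For IGFBP3 it was 0.01 (adjusted p = 0.934) and 1.14 (adjusted p = 4.9e-07). ANKRD1 gave 0.03 and 0.94 likewise. In these genes the mean of the DDX17 knockout lay near the controls and that of the other knockouts away from them. Other genes differed from the controls in the DDX17 knockout itself. TXNRD3 was at -1.55 (adjusted p = 0.000186) against the controls in the DDX17 knockout and at 0.22 (adjusted p = 0.052) in the others, TAX1BP3 at -0.92 and 0.19, SERPINB2 at -1.18 and 0.28, DENND6B at -1.44 and -0.30, and MACROD1 at 1.11 and -0.44. For the 12 largest falls the medians were -0.94 and 0.41. Over all 634 genes called higher the medians were 0.09 and -0.455, and over the 663 called lower -0.10 and 0.30. Of the 634, 64 were called higher than controls in the DDX17 knockout (34 lower), and 416 lower in the other 3 (10 higher). Of the 663, 113 were called lower than controls in the DDX17 knockout (24 higher), and 400 higher in the other 3 (29 lower). Against controls 1065 genes were called in the DDX17 knockout (9.11% of 11695) and 4072 in the mean of the other 3 (34.8%), a contrast with 3 times as many knockout libraries behind it. The first count was 2424 without replicate 1 of control hgRNA 1, 427 without replicate 1 of control hgRNA 2, and 103 and 13 without DDX17 knockout replicate 1 and 2. The authors' deposited table, made by its authors against the same controls, gives TXNRD3 at -1.48 (FDR 1.26e-18), MACROD1 at 1.02 (FDR 6.17e-07), CDH4 at 1.08 (FDR 2.62e-12) and SERPINB2 at -1.05 (FDR 0.00396) in the DDX17 knockout. Other genes did not pass there: IFITM10 at 0.29 (FDR 0.94), MYPN at -0.50 (FDR 0.256) and SDSL at -0.79 (FDR 0.199). In the fit used here these were at 0.61, -0.78 and -0.96 against controls (limma adjusted p = 0.00771, 0.0204 and 0.0171). The intronic deletion of DDX17 left its mRNA at 0.04 against controls (adjusted p = 0.81). With that deletion TXNRD3 was at 0.07 (adjusted p = 0.80), and SERPINB2, lower in the knockout, stood at 1.63 (adjusted p = 6.4e-08).

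Gene lists were read by their counts, beside 5.54% higher, 5.79% lower and a median log2 difference of 0.00 over all genes. Where limma called 0 members in a direction, the number at an unadjusted p under 0.05 is given too. Of 29 p53 target genes tested, 11 were lower and 0 higher (2 unadjusted; median -0.19). GADD45A, a DNA-damage response gene, held 53.4 and 66.2 CPM against 90.9, 98.8 and 134 (log2 -0.83, limma adjusted p = 3.18e-05). The death receptor FAS held 31.6 and 34.4 CPM against 44.8, 50.2 and 54.8 (log2 -0.59, adjusted p = 0.000483). Neither overlapped with the other knockouts. CDKN1A, the p21 cell-cycle inhibitor, was lower by a smaller amount (log2 -0.34, adjusted p = 0.0188), and MDM2 did not pass (-0.25, adjusted p = 0.0583). Against controls GADD45A was at -0.36 (adjusted p = 0.121) in the DDX17 knockout and at 0.47 (adjusted p = 0.0035) in the other 3. Against the DDX5, FNBP4 and HDAC7 knockouts taken singly, 11, 7 and 4 of the 29 were lower, where 6.11%, 3.96% and 2.36% of all genes were. Without DDX17 knockout replicate 1 the count lower was 4, and without replicate 2 it was 2.

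YAP/TEAD targets, genes read out for cell spreading and tension, had 7 of 21 lower and 0 higher (0 unadjusted; median -0.09). ANKRD1, a nuclear ankyrin-repeat protein, held 864 and 1002 CPM against 1449, 1766 and 2155 (log2 -0.92, SE 0.06, limma adjusted p = 6.41e-08). F3, tissue factor, held 344 and 425 CPM against 496, 579 and 711 (log2 -0.63, adjusted p = 1.5e-05). Both were below all 6 other knockouts, as were the other 5 called members, AMOTL2, MYOF, CRIM1, LATS2 and DOCK5. Of all 663 genes called lower, 433 were so placed. For MYOF the nearest libraries were almost level, at 234.2 CPM in the DDX17 knockout and 234.5 in another knockout. F3 was at 0.05 against controls in the DDX17 knockout and at 0.68 in the other 3. The count lower was 3 without DDX17 knockout replicate 1 and 2 without replicate 2. The Wnt list went both ways, with 3 of 16 lower and 1 higher (median 0.08). In it CCND1 (cyclin D1) was lower, with 1005 and 1016 CPM against 1357, 1653 and 1877 (log2 -0.66, limma adjusted p = 7.43e-05). SFRP1 was higher (log2 0.465, adjusted p = 0.000266).

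Cell-cycle genes were higher, mostly against 1 of the 3 knockouts. Of 30 mitosis genes 16 were higher (median 0.27), and of 32 DNA replication genes 11 (median 0.27), with 0 lower in either list (0 and 1 unadjusted). TOP2A, topoisomerase II alpha, held 432 and 504 CPM against 288, 344 and 539 (log2 0.37, SE 0.07, limma adjusted p = 0.00316). MCM6, a subunit of the replicative helicase, held 156 and 144 CPM against 89.7, 120 and 145 (log2 0.36, adjusted p = 0.00318). Both overlapped with other knockouts. Clear of the other 6 in junction reads were FEN1, the flap endonuclease (log2 0.97, adjusted p = 0.00264), and NUSAP1, a spindle protein (0.48, adjusted p = 0.00159). FEN1 rested on 8.33 and 7.1 CPM against 2.74, 4.27 and 5.5. In the authors' pooled RPKM neither was highest in the DDX17 knockout. FEN1 was at 29.4 and NUSAP1 at 26.6 there, against 30.4 and 27.4 in the HDAC7 knockout. Against the DDX5 knockout alone 28 of the 30 mitosis genes and 23 of the 32 replication genes were higher (4.74% of all genes were, and both medians were 0.49). Against the FNBP4 knockout the counts were 8 and 2 (medians 0.29 and 0.21, background 3.2%), and against the HDAC7 knockout 0 and 1 (medians 0.05 and 0.08, background 2.25%). Leaving the DDX5 knockout out of the reference gave 5 and 1. Without DDX17 knockout replicate 1 the counts were 1 and 0, and without replicate 2 they were 0 and 0. MCM6 stood at 0.43 against controls (adjusted p = 0.0059) in the DDX17 knockout and MCM7 at 0.49 (adjusted p = 0.0055), beside 0.07 and 0.15 in the other 3, whereas TOP2A stood at 0.13 (adjusted p = 0.351).

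**Figure D3:**
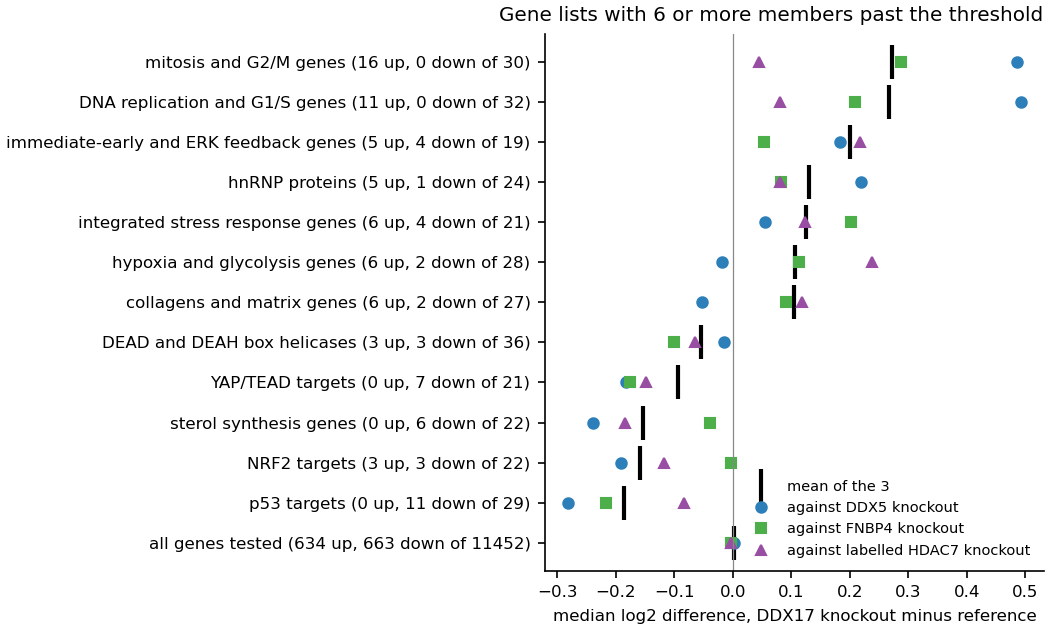
Median log2 difference of the DDX17 knockout from each other knockout for the 12 gene lists with 6 or more called members and for all genes tested, with a tick for the difference from the mean of the 3. The DNA replication and mitosis lists are spread from 0.05 to 0.49 between the reference knockouts, and the p53 list lies below 0 against each.

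Matrix genes went both ways. Of 27 tested 6 were higher and 2 lower (median 0.11). COL1A1, the main chain of type I collagen, held 1228 and 1422 CPM against 507, 657 and 1105 (log2 0.97, SE 0.09, limma adjusted p = 4.41e-06), and biglycan (BGN) was at 0.77 (adjusted p = 0.000927). The crosslinking enzyme LOX was lower, at -0.50 (adjusted p = 0.00023). All 3 had groups that did not overlap. COL1A1 ranged from 689 to 1473 CPM among the 4 controls, so its control level is poorly fixed. Hypoxia and glycolysis genes had 6 of 28 higher and 2 lower, a split that depended on the reference. Against the DDX5 knockout 2 were higher and 4 lower (median -0.02), against the FNBP4 knockout 5 and 1 (0.11), and against the HDAC7 knockout 7 and 1 (0.24). Beside CA9, VEGFA, the vascular growth factor, held 82.9 and 131 CPM against 41.3, 60 and 80.1 (log2 0.80, SE 0.08, adjusted p = 8.4e-06), while the hexokinase HK2 was lower (-0.28).

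Sterol synthesis genes had 6 of 22 lower and 0 higher (2 unadjusted; median -0.15). The direction was not shared by the 3 references: 6 were lower and 0 higher against the DDX5 knockout, 1 lower and 3 higher against the FNBP4 knockout, and 1 lower and 0 higher against the HDAC7 knockout. HMGCS1, HMG-CoA synthase, held 29.7 and 35.8 CPM against 38.5, 48.7 and 53.3 (log2 -0.53, limma adjusted p = 0.00109). Its libraries were below all other knockouts, which were themselves below the 78.5 to 98.5 CPM of the controls. Integrated stress response genes had 6 of 21 higher and 4 lower (5 and 3, 2 and 3, and 2 and 1 against the DDX5, FNBP4 and HDAC7 knockouts). The serine synthesis enzymes PHGDH (log2 0.46, adjusted p = 0.000688) and PSAT1 (0.38, adjusted p = 0.00463) were higher, and the amino acid transporter chain SLC3A2 was lower (-0.44, adjusted p = 0.00118). Immediate-early and ERK feedback genes had 5 of 19 higher and 4 lower (4 and 3, 3 and 4, and 6 and 2 against the same knockouts in turn). Among them the ETS factor ETV4 (1.27, adjusted p = 0.000145) and the phosphatase DUSP4 (0.85, adjusted p = 0.000651) were higher, and DUSP1 was lower (-0.60, adjusted p = 0.00193). Of 22 NRF2 targets 3 were higher and 3 lower, with TXNRD1, the cytosolic thioredoxin reductase, at 1391 and 1304 CPM against 1839, 1988 and 2442 (log2 -0.59, adjusted p = 1.19e-05).

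Genes for RNA processing, the setting in which DDX17 works, were called in some lists and not in others. Of 28 core spliceosome genes, 16 nonsense-mediated decay factors and 17 genes of the Microprocessor and microRNA pathway, limma called 0, and 3, 1 and 3 had an unadjusted p under 0.05. Of 22 SR proteins and their kinases limma called 1 higher and 0 lower, and 5 and 3 had an unadjusted p under 0.05. The medians of these lists lay between 0.01 and 0.04. Of 24 hnRNP genes 5 were higher and 1 lower (median 0.13). Against the DDX5, FNBP4 and HDAC7 knockouts singly 8, 0 and 2 were higher and 1 was lower each time. PTBP1, the polypyrimidine tract binding repressor of exons, held 217 and 200 CPM against 151, 163 and 193, without overlap (log2 0.31, SE 0.07, limma adjusted p = 0.00842). HNRNPD, an AU-rich element binder, was at 0.24 (adjusted p = 0.0264) and HNRNPUL2 at -0.36 (adjusted p = 0.00467). No hnRNP gene passed without either of the DDX17 knockout libraries (0 in both cases). Of 36 DEAD and DEAH box helicases 3 were higher and 3 lower. DDX17 was the lowest of them and DDX5 the highest, followed by the export helicase DDX39A (0.56, adjusted p = 0.00291, but 0.09 against the FNBP4 knockout), and DDX47, a helicase of ribosome assembly, was lower (-0.36, adjusted p = 0.0114). Of the lists not yet described, NF-kB and cytokine genes had 3 of 19 higher and 0 lower (1 unadjusted), Notch pathway genes 3 of 11 higher and 1 lower, interferon response genes 3 of 25 higher and 1 lower, and ribosome biogenesis genes 4 of 25 lower and 0 higher (0 unadjusted), with 0, 6 and 1 lower against the DDX5, FNBP4 and HDAC7 knockouts. Without the replicate block the list counts given here were 0, except that 1 hypoxia gene was higher.

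Libraries differed in ways that move with the comparison. Spliced-junction reads numbered 15080988 to 20233610 in the knockouts and 16243890 to 18014375 in the controls. Reads over exon-intron boundaries were set against spliced reads, each of which was counted at both ends of its intron. On that scale they made up 1.21% in DDX17 knockout replicate 1 against 0.965% to 1.18% in the others of replicate 1. In replicate 2 they made up 2.29% against 1.92% to 1.95%. The DDX17 library was thus the highest in both (difference 0.252 points; exact permutation within replicates, p = 0.0625, the smallest possible), and the replicates differed more than the groups. In the controls this share was 2.11% to 2.57%, and in each replicate the DDX17 library was the knockout nearest to them. The part of the share in the results was not tested. Pigment epithelium markers were present in part: 6 of 16 (among them MITF, OTX2, KRT8, KRT18 and MERTK) passed 1 CPM, TYR was at 0 in all 8 libraries, and the sum was 1084 and 1292 CPM in the DDX17 knockout and 1140 to 1719 in the others. Of markers of other cells, CD68, KDR, MAP2 and KRT10 passed 1 CPM, while CD3E, CDH5, SOX10, GFAP and RBFOX3 were at 0.

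Splicing was tested on 258379 events with 20 or more reads in each of the 8 libraries. Limma called 0 of them (0%) at an adjusted p under 0.05 with a difference of 10 percentage points, and the smallest adjusted p was 0.171. At an unadjusted p under 0.05, 18565 passed, and 737 of these with 10 points, 306 higher (0.118%) and 431 lower (0.167%). Most events tested are included nearly always or never, so a second test was limited to the 13196 whose mean inclusion was 5% to 95%, a choice made after the first result was seen. There 31 were called (0.235%), 9 higher and 22 lower, and 27 of them were exons (0.486% of 5553). Of these exons 21, in 18 genes, were less included in the DDX17 knockout and 6, in 5 genes, more. The mean that set the limit holds the DDX17 libraries, and for 8 of the 21, in MORN1 (2 exons), TBC1D19, ACTR1B, IKBKG, ASL, BID and BORCS8 (1 exon), the other 6 libraries averaged over 95%. Those 8 were tested only because they were lower in the DDX17 knockout. The limit was therefore also set on the 4 controls, which are not part of the contrast. Limma then called 18 of 14759 events (0.122%), among them 12 exons with less inclusion and 3 with more (0.272% of 5514 exons). All 12 are among the 21, of which 15 were tested. Over those 5514 exons both DDX17 libraries lay below all 6 others by 10 points in mean for 211 (3.83%) and above them for 62 (1.12%), beside 238 (4.29%) and 68 (1.22%) of the 5553. The calls depend on both DDX17 libraries: limma called 0 events without replicate 1 and 0 without replicate 2, where 164 and 206 exons were lower at an unadjusted p under 0.05 and 10 points. The count was 14 without the block, 4 without the FNBP4 knockout, 6 and 1 without its replicates 1 and 2, 16 without the DDX5 knockout (14 without its replicate 1, 20 without its replicate 2), and 19 without the libraries labelled HDAC7 knockout (10 and 18 without their replicates 1 and 2).

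The 21 exons with less inclusion differed by 11.3 to 37.2 points (median -19.1). In all 21 both DDX17 knockout libraries were below every other knockout, and in all 21 they were below all 4 controls. The 21 were called for being lower in these same libraries. Their place below the others is thus favoured by the choice and is given as description only. In 0 of the 21 were all 4 DDX17 deletion libraries below the controls. Of the 21 exons 9 (42.9%) have a length that is a multiple of 3, against 46.3% of the 5553. Each genomic exon printed here is whole and coding, from GENCODE transcripts on GRCh38, and is shown because its length is a multiple of 3, so that skipping it keeps the reading frame. All 5 are on plus strands and printed 5′ to 3′: EFHD2 at chr1:15427150-15427284, TRIM22 at chr11:5697248-5697343, CARD19 at chr9:93111879-93111938, RCC1 at chr1:28530523-28530573 and MAP7D1 at chr1:36174898-36175008.
EFHD2 exon: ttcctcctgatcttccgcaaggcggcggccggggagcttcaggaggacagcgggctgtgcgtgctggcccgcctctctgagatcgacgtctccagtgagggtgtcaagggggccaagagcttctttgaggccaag
TRIM22 exon: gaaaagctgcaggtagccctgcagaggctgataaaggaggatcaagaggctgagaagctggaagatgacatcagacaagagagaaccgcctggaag
CARD19 exon: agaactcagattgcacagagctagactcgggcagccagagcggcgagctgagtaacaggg
RCC1 exon: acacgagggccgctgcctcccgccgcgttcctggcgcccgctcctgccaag
MAP7D1 exon: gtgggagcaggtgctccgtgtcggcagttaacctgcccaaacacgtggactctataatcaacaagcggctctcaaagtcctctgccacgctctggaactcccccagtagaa

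The exons in these paragraphs were picked after their values were seen, except those of MORN1, TBC1D19 and SNHG23, which the rule for named events gave. EFHD2, a calcium-binding actin regulator, included its exon of 135 bases at 63% and 69.2% in the DDX17 knockout, at 88.7% to 96.8% in the other knockouts and at 94% to 96.9% in the controls (limma adjusted p = 0.00626 among the 13196 events). With the limit on the controls, where its mean was 95.2%, it was not tested. At least 555 reads stood behind each value. TRIM22, an interferon-induced ubiquitin ligase, included 96 bases at 57.4% and 63% against 82.3% to 88.3% (adjusted p = 0.0219). CARD19, a CARD-domain protein, included 60 bases at 59.5% and 60.8% against 86.1% to 95% (adjusted p = 0.0473, and 0.0581 with the limit on the controls), with 78 reads or more. In each the 2 DDX17 values lay far under the lowest other library. RCC1, the exchange factor of the RAN GTPase, included 51 bases at 10.1% in both libraries against 28.2% to 38% and 33.3% to 44.5% in the controls (adjusted p = 0.0316). MAP7D1, a microtubule-binding protein, included 111 bases at 49.7% and 47.6% against 62.6% to 73.1% (adjusted p = 0.027). The exons of RCC1 and MAP7D1 were used at intermediate levels in every knockout and control library, and lower in the DDX17 knockout.

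Further exons with less inclusion were in MYLK, KLC1, TPM1 and VCAN. MYLK, myosin light chain kinase, included an exon of 207 bases at 33.9% and 34.2% against 51.5% to 59.6% (limma adjusted p = 0.0116), with 941 reads or more. KLC1, a kinesin light chain, included 82 bases at 9.51% and 8.95% against 23.5% to 34% (adjusted p = 0.0198). A neighbouring exon of 67 bases was lower as well (adjusted p = 0.0468, and 0.0581 with the limit on the controls). The 2 KLC1 exons are scored between the same flanking exons and share reads. TPM1, tropomyosin, included 76 bases at 62.6% and 61.2% against 69.7% to 80.6% (adjusted p = 0.0219), with at least 4589 reads. All of these were separated from the other knockouts. In VCAN, the proteoglycan versican, the exon of 2961 bases was included at 12.6% to 13.6% against 15.6% to 37.4% (adjusted p = 0.0182), where the nearest other library lay close by. The remaining exons with less inclusion were in MORN1 and BORCS8 (2 neighbours each, which share reads) and in TBC1D19, GUK1, ACTR1B, CHTF8, IKBKG, ASL and BID. With the limit on the controls BID missed the threshold (0.0581), and MORN1, TBC1D19, ACTR1B and IKBKG were not tested. In MORN1 the 2 exons, of 91 and 88 bases, differed by -32.9 and -37.2 points on as few as 40 and 36 reads.

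**Figure D4:**
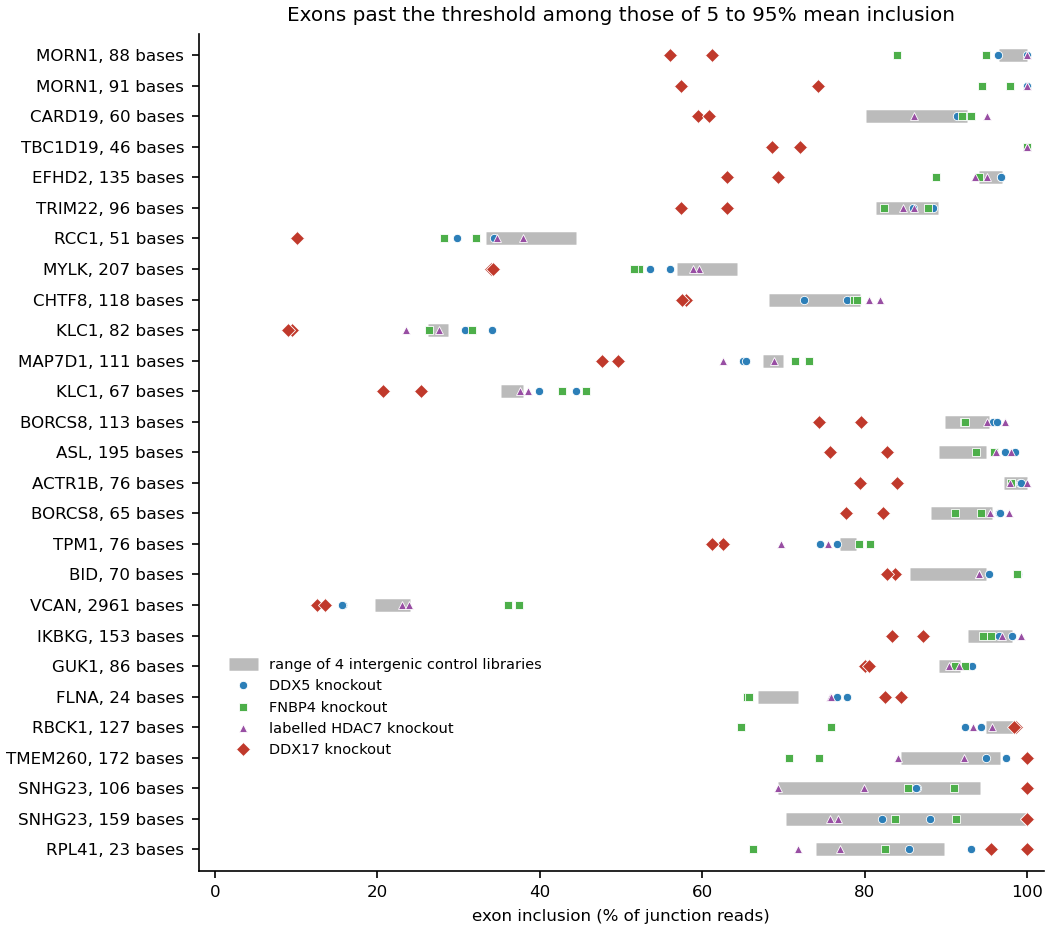
Inclusion in percent of the 27 exons called among events of 5% to 95% mean inclusion, with a point for each knockout library and a bar for the range of the 4 controls. For the 21 exons with less inclusion both DDX17 knockout points lie left of all other knockout points and of the control bar, while the 6 with more inclusion lie to the right of the other knockouts. Being called on these same libraries favours both placements.

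Fewer events went up. FLNA, the actin crosslinker filamin A, included a 24-base exon at 82.5% and 84.4% against 65.5% to 77.8% and 66.9% to 71.7% in the controls (limma adjusted p = 0.0219), with 1956 reads or more. The other 5 exons with more inclusion were in RBCK1, RPL41 and TMEM260 and, as 2 neighbours, in the noncoding host transcript SNHG23. With the limit on the controls RPL41 (adjusted p = 0.0528) and TMEM260 (0.0581) missed the threshold, and RBCK1 was not tested. Of 3318 introns 2 were called (0.0603%), both more retained. An intron of PLXNA1, a semaphorin receptor, at chr3:127032837-127033921 was 61.6% and 59.3% unspliced in the DDX17 knockout, 8.51% to 28.1% in the others and 10.9% to 19.4% in the controls (adjusted p = 0.0266), on as few as 35 reads. In BRWD1 an intron of 9080 bases was at 100% in both DDX17 libraries against 74.1% to 96.3%, on as few as 23 reads (adjusted p = 0.0468, and 0.0542 with the limit on the controls). Over the 3318 introns both DDX17 libraries lay above all 6 others by 10 points in mean for 47 (1.42%) and below them for 16 (0.482%). Among the knockouts of each replicate the exon-intron share given above was also highest in the DDX17 library. Of 1929 alternative 5′ splice sites 2 were called (0.104%), both in GAPDH and sharing reads, with the longer form at 10.5% and 11.1% against 22.7% to 34.9% in the other knockouts and 4.22% to 17.6% in the controls.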

How the data were processed

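Stranded, ribosomal RNA-depleted libraries of RPE-1 cells were compared from the authors' deposited vast-tools table, which gives per library the percent inclusion of 721536 splicing events and, beside it per the file headers, a quality text whose read counts support each value. No gene counts per library were used. The members and lists were chosen with earlier results of these data known. For each gene the spliced-junction counts of its introns were summed, an expression measure that leaves out genes without introns. Genes passed a filter of 10 reads at the median depth in any 2 libraries and 15 in all. Limma 3.58.1 (R 4.3.3) with voom and TMM fitted 4 group terms and a replicate term on 8 libraries (3 residual and 14.9 prior degrees of freedom), and tested DDX17 minus the mean of the other 3, with Benjamini-Hochberg adjustment over 11452 genes at 0.05. Same-numbered libraries deviated together across groups (6 correlations of 0.455 to 0.622), so the numbers pair the libraries. Controls entered a second fit. Events used log2((inclusion + 1)/(exclusion + 1)) with 20 or more reads in each library. Called genes, named by rule, were the 12 largest on each side with mean log2 CPM of 2 or more and no overlap, and up to 4 members of each list with 2 or more calls, of 33 lists. In the table, 2 library columns that match no listed sample were left out. Pooled RPKM, log2 fold changes and p-values in the authors' deposited expression table come, per the submitters' processing notes, from Salmon 1.10 and edgeR, and are quoted only where named. Guides were matched to GENCODE v29 transcripts. The build was read from the event coordinates, whose DDX17 introns fit between GRCh38 exons. Alternatives covered the filter, scaling, block, GC and length, all 34 libraries and each library or group left out. A few genes that the rule names are not reported here.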

Additional observations from a re-analysis of the deposited data

How the results depend on the processing

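The number of genes called depended on the block and on single libraries. Against the mean of the other knockouts it was 1297, 22 with no replicate block (8 higher, 14 lower), 1991 with GC and length trends removed beside the block, 474 in a fit on all 34 libraries, 2222 without the libraries labelled HDAC7 knockout, and 170 to 2147 with 1 library left out. Against the DDX5 knockout (1243) the values were 25, 1990, 426, 2206 and 263 to 2158. Against the FNBP4 knockout (819) they were 9, 1347, 292, 1666 and 159 to 1686. Against the HDAC7 knockout (528) they were 0, 1086, 92 and, with 1 library left out, 65 to 1084. Against controls the DDX17 knockout gave 1065, 19 with no replicate block, 17 with neither the block nor the other knockouts, and 13 to 2424 with 1 library left out, and the other 3 gave 4072, 1855 and 2517 to 4916. A library left alone in its group is assumed to vary like the others. Without the block DDX17 itself stayed at -0.65 (limma adjusted p = 0.0836), and it lay between -0.71 and -0.59 with 1 library left out. HDAC7, which never passed, changed sign to -0.037 with GC and length removed and lay between -0.0868 and 0.151 with 1 library left out. Of 2033 values of named genes under alternatives 2028 kept their direction. Events called numbered 0, and 20 in the fit on all 34 libraries. Among events of 5% to 95%, 31 became 14 with no replicate block, 92 on all 34 libraries, 16, 4 and 19 without the DDX5, FNBP4 and HDAC7 knockouts, 18 with the limit set on the 4 control libraries and 18 with it set on the 6 other knockout libraries (both chosen after seeing the data), and 0 to 20 with 1 library left out. The causes were not tested. Depth limits events with few reads, and 97.3% of genes had GC and length.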

Other observations

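Genes on chromosome 22 were split at the DDX17 cut. On the telomere side 97 were tested, of which 3 were higher and 13 lower in the DDX17 knockout (median log2 -0.09), where 5.54% and 5.79% of all genes were. On the centromere side 160 were tested, with 11 higher and 10 lower (median -0.02), and of 35 within 1 Mb of the cut 2 were higher and 3 lower (median -0.01). Besides DDX17, the transcript with the closest match to the guide beside an NGG was that of EIF4G2, a translation factor, with 4 mismatches, and its level differed by -0.04 (limma adjusted p = 0.748).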
